A study of Mus musculus with 12 samples.

Results

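Parp9, Dtx3l, Parp14, Parp10, Parp12, Tiparp, Parp11, Parp8 and Parp3 were followed in mouse peritoneal cells as a set of genes linked to ADP-ribosylation and, for most of them, to interferon. The set holds 8 genes of mono-ADP-ribosyltransferases and Dtx3l, the ubiquitin ligase that pairs with Parp9. They were chosen by symbol, and all 9 of the 9 were found among the 21851 genes of the files. RNA of cells washed from the peritoneal cavity was sequenced from C57BL/6J mice in 4 groups of 3 libraries: lactoferrin knockout with LPS, lactoferrin knockout with PBS, wild type with LPS and wild type with PBS. LPS is bacterial lipopolysaccharide, PBS is the saline vehicle, and both were injected into the peritoneum. Lactoferrin, the product of Ltf, binds iron and is stored in granules of neutrophils. The sources used here give no dose, time after injection, age, sex or design of the knockout allele. Titles of the knockout libraries also carry the words wild type, while their codes and characteristics say lactoferrin knockout. The labels do not say that the 3 libraries of a group came from separate mice, so p-values measure the spread between these libraries, which may be technical.

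ADP-ribosyltransferases take ADP-ribose from NAD and attach it to proteins or nucleic acids. Parp1, Parp2 and the tankyrases build chains, while the mono-ADP-ribosyltransferases attach single units. Interferons signal through JAK kinases and STAT transcription factors, which switch on genes with interferon-response elements, and Parp9, Dtx3l, Parp10, Parp12 and Parp14 are known among these target genes in macrophages and other cells. LPS is sensed through Tlr4, which activates NF-kB and, through IRF3, the making of type I interferon, so that macrophages given LPS also show an interferon response. Tiparp is best known as a target gene of the aryl hydrocarbon receptor (AHR) that in turn restrains it, and Parp3 is best known for its part in the repair of DNA breaks.

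Stretches just upstream of 3 genes are shown because these genes stood apart in the values that follow. Parp12 had the largest rise after LPS, Parp11 was the only one of the 6 genes with a promoter window that held an interferon-type motif, and Parp3 was the only one that fell. The sequences are from RefSeq on GRCm38.p6, written 5′ to 3′ on the strand of the gene and ending at the base before the annotated start of transcription. Capitals mark motif matches.
Parp11 (chr6:127446590-127446839, plus strand): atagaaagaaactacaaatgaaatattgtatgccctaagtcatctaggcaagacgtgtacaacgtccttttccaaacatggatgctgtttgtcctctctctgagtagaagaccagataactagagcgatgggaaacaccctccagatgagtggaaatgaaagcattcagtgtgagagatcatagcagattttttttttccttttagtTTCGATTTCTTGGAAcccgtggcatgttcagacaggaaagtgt
Parp12 (chr6:39118350-39118472, minus strand): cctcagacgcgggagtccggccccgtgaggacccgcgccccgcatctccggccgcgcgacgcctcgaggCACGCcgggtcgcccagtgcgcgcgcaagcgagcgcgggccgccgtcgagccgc
Parp3 (chr9:106476950-106477199, minus strand): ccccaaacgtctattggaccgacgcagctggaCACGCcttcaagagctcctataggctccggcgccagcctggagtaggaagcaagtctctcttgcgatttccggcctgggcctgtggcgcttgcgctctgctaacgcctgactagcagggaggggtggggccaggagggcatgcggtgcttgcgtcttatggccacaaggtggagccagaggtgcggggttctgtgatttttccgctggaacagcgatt
In Parp11 the capitals join a repeat bound by interferon regulatory factors, GAAANNGAA on the opposite strand from position -43 to -35, and the STAT-type element TTCNNNGAA from -37 to -29, which overlap. Position -1 is the base before the start. In Parp12 and Parp3 the capitals mark CACGC, the opposite-strand reading of GCGTG, the core bound by AHR, which begins at -54 in Parp12 and at -218 in Parp3.

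Both strands of the windows from 250 bases before to 50 bases after the start were searched. RefSeq windows were matched for 6 of the 9 genes, as 7 windows, since Parp11 has 2, of which the first is shown. No window was matched for Parp9, Parp10 and Parp14, so the counts that follow leave these genes out. The interferon-regulatory-factor repeat was in 1 of the 7 windows and in 8.56% of the 32851 windows of all genes. The STAT-type element was also in 1 of 7, against 8.3% of all windows. A canonical NF-kB motif was in 0 of 7 and in 4.51% of all windows. The short AHR core was in 6 of 7 and in 32.4% of all windows. This core is mostly G and C, and the windows were not matched for base composition. G and C made up 81.3% of the stretch shown for Parp12, 61.2% of that for Parp3 and 40.4% of that for Parp11. The Parp11 stretch shown lacks the core. The other Parp11 window, with its start at chr6:127453627, held the core from -165 and from -86 and neither interferon-type motif. Each of the 6 genes thus had the core in a window. These matches describe letters and not bound sites, and the absence of a match says only that the letters were not in these windows.

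The deposited values were taken as FPKM, fragments scaled by transcript length and library total, and the number of reads behind a value is unknown. FPKM totals lay between 376378 and 388129 in the knockout LPS libraries and between 343874 and 382682 in the other 9, with 13921 to 14574 genes above 0. Ltf averaged 0.0899 ± 0.024 FPKM in knockout LPS, 0.218 ± 0.0376 FPKM in knockout PBS, 0.593 ± 0.639 FPKM in wild-type LPS and 1.43 ± 0.402 FPKM in wild-type PBS (SD, n = 3 each). It was lower in the knockout by 0.73 on the log2(FPKM + 1) scale (log2 difference -0.73). In an exact two-sided permutation test that swapped genotypes inside each treatment this gave p = 0.005, the lowest possible with 400 relabellings. The knockout and wild-type LPS groups lay as close as 0.117 and 0.176 FPKM. Markers of large peritoneal macrophages summed to 1650 to 5760 FPKM in the 12 libraries. Haemoglobin RNA reached 1867 FPKM in knockout LPS replicate 1, 2203 FPKM in wild-type LPS replicate 2 and 327 FPKM in wild-type PBS replicate 2, and was at most 43.4 FPKM elsewhere. Among wild-type PBS libraries Spearman correlations were 0.934 to 0.975, and within the other groups at least 0.973.

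LPS raised most of the set in both genotypes. In the knockout 8 of 9 genes rose and 0 fell; in wild type 6 rose and 1, Parp3, fell. A gene was called where limma's p-value, adjusted by the Benjamini-Hochberg method over all 9841 genes tested, was under 0.05, and all 9 genes passed the filter of a mean of 1 FPKM. Among all genes tested 19.9% rose and 33.3% fell with LPS in the knockout, and 24.8% rose and 37.4% fell in wild type, so the share of the set that rose was above the background in both genotypes. Without the 3 libraries rich in haemoglobin RNA, 6 of the 9 genes were called in the knockout and 7 in wild type; Parp9 and Dtx3l lost their calls in the knockout, with log2 fold changes of 0.58 and 0.53 (limma, adjusted p = 0.0929 and 0.0842), against 0.63 and 0.54 in all libraries. The median log2 fold change of the 9 genes was 0.70 in the knockout and 1.01 in wild type, against -0.13 and -0.11 over all genes tested. Because 1 FPKM is added before taking log2 of FPKM, fold changes of Parp8, Parp3 and Parp11, whose levels are low, are understated.

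Counted by ranges, 6 genes had all 3 LPS libraries above all 3 PBS libraries in the knockout, where 24.6% of all genes did, and 0 had them all below, where 41.3% did. In wild type 8 genes had all LPS libraries above, where 27.2% of all genes did, and 1 had them all below, where 38.9% did. Summed over the 9 genes, FPKM came to 249.9 ± 18.6 in knockout LPS and 128.7 ± 29.4 in knockout PBS, and to 256.8 ± 22.7 in wild-type LPS and 118.6 ± 16.1 in wild-type PBS (SD, n = 3 each). RNA came from mixed cells, so a change in the number of cells of a type and a change in RNA per cell cannot be told apart.

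Marker genes of the cell types in the lavage shifted with LPS in the same libraries. Summed markers of mature neutrophils (10 genes) were 743 to 2720 FPKM in knockout LPS and 1380 to 3220 FPKM in knockout PBS, where 3 of 10 fell, with a median log2 fold change of -0.47. In wild-type LPS they were 189 to 302 FPKM, against 2140 to 3390 FPKM in wild-type PBS, where 9 of 10 fell, with a median of -3.65. S100a8 and S100a9 held most of these sums. Summed monocyte markers (8 genes) were 872 to 1380 FPKM in knockout LPS and 2380 to 2900 FPKM in knockout PBS, where 5 fell and 1 rose, and 931 to 1340 FPKM in wild-type LPS and 1950 to 2700 FPKM in wild-type PBS, where 7 fell and 1 rose. Of 10 markers of large peritoneal macrophages 7 fell and 1 rose in the knockout, and 6 fell and 2 rose in wild type, although the sum, led by Cxcl13, overlapped between LPS and PBS in both genotypes. Icam2, for example, averaged 26.1 ± 2.18 FPKM in knockout LPS and 87.3 ± 7.78 FPKM in knockout PBS, and 24.6 ± 2.92 FPKM in wild-type LPS and 103 ± 60.2 FPKM in wild-type PBS (SD, n = 3 each).

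Markers of dendritic cells and small macrophages (9 genes) moved in both directions. Their sum was 89.1 to 204 FPKM in knockout LPS and 49.5 to 71.7 FPKM in knockout PBS, and 119 to 143 FPKM in wild-type LPS and 79.7 to 83.3 FPKM in wild-type PBS, and Irf4, Ccr7 and Cd209a held most of it. These 3 rose in the knockout, and of them Irf4 alone passed the test in wild type. Itgax fell in both, to 0.816 ± 0.033 FPKM in knockout LPS, against 5.34 ± 1.33 FPKM in knockout PBS, and to 1.13 ± 0.224 FPKM in wild-type LPS, against 9.15 ± 2.29 FPKM in wild-type PBS (SD, n = 3 each). The other 5 were below the filter; Zbtb46, Clec9a, Xcr1 and Siglech were under 1 FPKM in every library, and the mean of each of the 5 was lower with LPS than with PBS in both genotypes. The part of these marker shifts in the results was not tested.

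**Figure D1:**
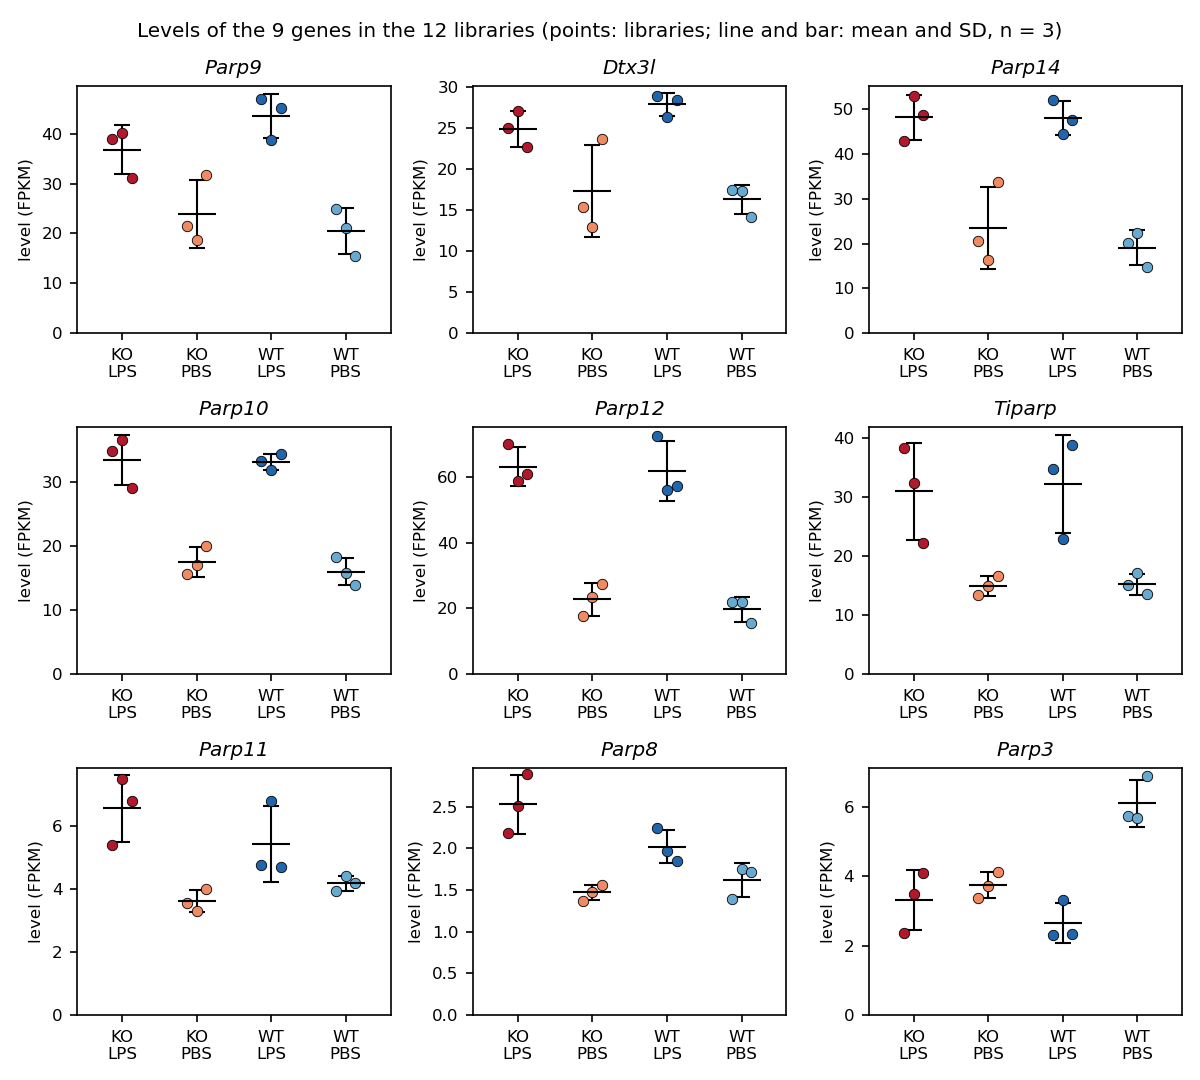
Level of each of the 9 genes in FPKM (vertical axes, from 0) in the knockout LPS, knockout PBS, wild-type LPS and wild-type PBS libraries, from left to right. Points are libraries and bars are the mean and SD of 3. LPS groups lie above PBS groups for Parp10, Parp12, Parp14, Tiparp, Parp11 and Parp8 in both genotypes, and Parp3 is highest in wild-type PBS.

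Parp9 and Dtx3l encode partners. Parp9 reads ADP-ribose through macrodomains and has little transferase activity alone, and Dtx3l is a ubiquitin ligase of the Deltex family that forms a heterodimer with it. Their genes lie head to head on chromosome 16 of GRCm38, Parp9 at chr16:35938470-35972605 on the plus strand and Dtx3l at chr16:35926511-35939151 on the minus strand, and the annotated genes share 682 bases. Since the use of strand in the authors' quantification is not given in the sources used here, reads in the shared bases cannot be assigned with certainty.

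Parp9 had 39.0, 40.2 and 31.2 FPKM in knockout LPS and 21.5, 18.6 and 31.7 FPKM in knockout PBS. It had 47.0, 38.7 and 45.2 FPKM in wild-type LPS and 24.8, 21.1 and 15.5 FPKM in wild-type PBS. The wild-type groups were apart, while in the knockout PBS replicate 3 reached the lowest LPS library. Parp9 rose by 0.63 ± 0.204 on the log2 scale (SE) in the knockout, with an adjusted p of 0.0223 by limma, and by 1.08 ± 0.204 in wild type, with an adjusted p of 0.000838.

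Dtx3l had 24.98, 27.0 and 22.6 FPKM in knockout LPS and 15.4, 12.96 and 23.6 FPKM in knockout PBS. In wild-type LPS it had 28.8, 26.3 and 28.4 FPKM, against 17.4, 17.3 and 14.2 FPKM in wild-type PBS. Again knockout PBS replicate 3 overlapped the LPS range and the wild-type groups did not overlap. Dtx3l rose by 0.54 ± 0.176 in the knockout (limma, adjusted p = 0.0234) and by 0.74 ± 0.176 in wild type (adjusted p = 0.00335). The calls of Parp9 and Dtx3l in the knockout rest on few libraries. Each was lost when knockout LPS replicate 1, knockout LPS replicate 2, knockout PBS replicate 1 or knockout PBS replicate 2 was left out, with adjusted p-values between 0.0564 and 0.102, and without knockout PBS replicate 3 the log2 fold changes were 0.84 for Parp9 and 0.77 for Dtx3l.

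The level of Dtx3l divided by that of Parp9 stayed between 0.613 and 0.913 over the 12 libraries. It averaged 0.678 ± 0.0426 in knockout LPS and 0.719 ± 0.0248 in knockout PBS, and 0.64 ± 0.0347 in wild-type LPS and 0.81 ± 0.107 in wild-type PBS (SD, n = 3 each). Thus the LPS response of Parp9 exceeded that of Dtx3l by 0.21 in log2 FPKM with nothing added (exact two-sided permutation of treatment within genotype, p = 0.02).

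Parp14 is a large mono-ADP-ribosyltransferase with macrodomains, known in mice as a cofactor of STAT6 in interleukin-4 responses and as an interferon target. It lies on the same chromosome at chr16:35832874-35871544 on the minus strand, 55.0 kilobases from Dtx3l. It had 42.9, 52.9 and 48.8 FPKM in knockout LPS and 20.5, 16.3 and 33.6 FPKM in knockout PBS. It had 52.0, 44.6 and 47.6 FPKM in wild-type LPS and 20.1, 22.4 and 14.7 FPKM in wild-type PBS. No PBS library reached an LPS library, although knockout PBS replicate 3 was again the highest of its group. Parp14 rose by 1.07 ± 0.225 in the knockout (limma, adjusted p = 0.00218) and by 1.31 ± 0.225 in wild type (adjusted p = 0.000436). Without knockout PBS replicate 3 the value in the knockout was 1.35.

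Parp10 is a mono-ADP-ribosyltransferase with ubiquitin-interacting motifs, described in cell lines as a regulator of Myc and NF-kB. It lies at chr15:76231174-76243441 on the minus strand. It had 34.8, 36.5 and 29.0 FPKM in knockout LPS and 15.6, 17.0 and 20.1 FPKM in knockout PBS. In wild-type LPS it had 33.2, 31.9 and 34.4 FPKM, against 18.2, 15.8 and 13.9 FPKM in wild-type PBS. The groups were apart in both genotypes and the mean LPS levels of 33.5 and 33.2 FPKM in knockout and wild type were close. Parp10 rose by 0.90 ± 0.128 in the knockout (limma, adjusted p = 0.000182) and by 1.02 ± 0.128 in wild type (adjusted p = 5.36e-05).

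Parp12 is a zinc-finger member of the family that restrains the growth of several RNA viruses. It lies at chr6:39086410-39118349 on the minus strand. It had 70.0, 58.7 and 60.8 FPKM in knockout LPS and 17.5, 23.4 and 27.3 FPKM in knockout PBS. It had 72.4, 56.0 and 57.2 FPKM in wild-type LPS and 21.9, 22.0 and 15.4 FPKM in wild-type PBS. Every LPS library stood far above every PBS library, and no other gene of the set had a larger fold change in either genotype. Mean levels were 2.78 times as high with LPS in the knockout and 3.13 times as high in wild type. The rise was 1.45 ± 0.181 on the log2 scale in the knockout (limma, adjusted p = 7.41e-05) and 1.61 ± 0.181 in wild type (adjusted p = 2.66e-05).

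Tiparp, at chr3:65528410-65555518 on the plus strand, had 38.4, 32.4 and 22.2 FPKM in knockout LPS and 13.3, 14.9 and 16.6 FPKM in knockout PBS. It had 34.8, 22.9 and 38.9 FPKM in wild-type LPS and 15.0, 17.1 and 13.5 FPKM in wild-type PBS. The groups were apart, and the LPS libraries were more spread out than the PBS libraries in both genotypes, with 1 low library in each. Tiparp rose by 0.98 ± 0.215 in the knockout (limma, adjusted p = 0.00282) and by 1.01 ± 0.215 in wild type (adjusted p = 0.00178).

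Parp11 is a mono-ADP-ribosyltransferase described in cell lines as a regulator of the type I interferon receptor. It lies at chr6:127446840-127494261 on the plus strand. It had 5.38, 7.46 and 6.79 FPKM in knockout LPS and 3.55, 3.28 and 3.99 FPKM in knockout PBS. In wild-type LPS it had 4.76, 6.79 and 4.67 FPKM, against 3.93, 4.40 and 4.18 FPKM in wild-type PBS. All LPS libraries were above all PBS libraries, by a small margin in wild type. The rise passed the test in the knockout at 0.70 ± 0.141 (limma, adjusted p = 0.0016), and the wild-type value was 0.30 ± 0.141 (adjusted p = 0.0876). Under median-of-ratios and upper-quartile scaling the wild-type value passed too, at 0.45 (adjusted p = 0.0143) and 0.41 (adjusted p = 0.0244), in limma fits.

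Parp8, a little-studied mono-ADP-ribosyltransferase at chr13:116854820-117025537 on the minus strand, had the lowest mean level of the set in each group. It had 2.19, 2.51 and 2.89 FPKM in knockout LPS and 1.37, 1.48 and 1.56 FPKM in knockout PBS. It had 2.24, 1.97 and 1.85 FPKM in wild-type LPS and 1.39, 1.76 and 1.72 FPKM in wild-type PBS. The groups did not overlap in either genotype. Parp8 rose by 0.51 ± 0.108 in the knockout (limma, adjusted p = 0.00224), and the wild-type value of 0.21 ± 0.108 did not pass (adjusted p = 0.117). It passed at 0.32 (adjusted p = 0.0245) under median-of-ratios scaling and at 0.29 (adjusted p = 0.0466) under upper-quartile scaling in limma fits. For Parp8 and Parp11 the difference between genotypes in the LPS response was 0.30 (95% interval -0.03 to 0.64) and 0.41 (95% interval -0.03 to 0.85), and neither passed the test, with adjusted p-values of 0.543 and 0.536 by limma.

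Parp3 went against the rest. It had 2.37, 3.50 and 4.08 FPKM in knockout LPS and 3.37, 3.72 and 4.12 FPKM in knockout PBS. In wild-type LPS it had 2.31, 3.32 and 2.34 FPKM, against 5.74, 5.68 and 6.88 FPKM in wild-type PBS. The 3 wild-type PBS libraries were above the other 9, which overlapped. Parp3 fell by 0.96 ± 0.159 in wild type (log2 fold change -0.96, limma, adjusted p = 0.000326), where its mean level with LPS was 0.436 times that with PBS. In the knockout the value was -0.15 ± 0.159 (adjusted p = 0.442). Parp3 thus had no called rise with LPS in either genotype. The comparison of LPS with PBS does not test a link to interferon for this or any other gene of the set.

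Parp3 lies at chr9:106470322-106476949 on the minus strand and shares 987 bases with Rrp9, a gene of ribosomal RNA processing on the plus strand. Rrp9 moved the other way, rising with LPS by 1.46 ± 0.193 in the knockout (limma, adjusted p = 0.000111) and by 1.65 ± 0.193 in wild type (adjusted p = 3.44e-05). With strand use not given, Parp3 values carry this uncertainty. Ltf, the gene targeted in the knockout, lies on the same chromosome at chr9:111019271-111042767, 4.54 megabases away. Markers of several cell types were also highest, or among the highest, in wild-type PBS, but not those of all types. Summed markers of large peritoneal macrophages were 1650 to 2760 FPKM in wild-type PBS and 2370 to 3110 FPKM in wild-type LPS. They were 3110 to 5760 FPKM in knockout PBS and 3320 to 4180 FPKM in knockout LPS. Of 10 neutrophil markers, 3 fell with LPS in the knockout and 9 in wild type, and their sums overlapped between LPS and PBS in the knockout, as the Parp3 levels did. Summed T cell markers (8 genes) were 7.68 to 16.3 FPKM in knockout LPS, 16.6 to 23.6 FPKM in knockout PBS, 13.6 to 15.6 FPKM in wild-type LPS and 35 to 48.3 FPKM in wild-type PBS, and 7 of 7 tested fell with LPS in wild type and 2 of 7 in the knockout. Unlike Parp3, the T cell sums did not overlap between LPS and PBS in the knockout. Summed B cell markers (8 genes) were 153 to 269 FPKM in knockout LPS, 692 to 957 FPKM in knockout PBS, 249 to 355 FPKM in wild-type LPS and 578 to 1240 FPKM in wild-type PBS. The B cell sums also did not overlap between LPS and PBS in the knockout. The part of these markers in the Parp3 values was not tested.

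**Figure D2:**
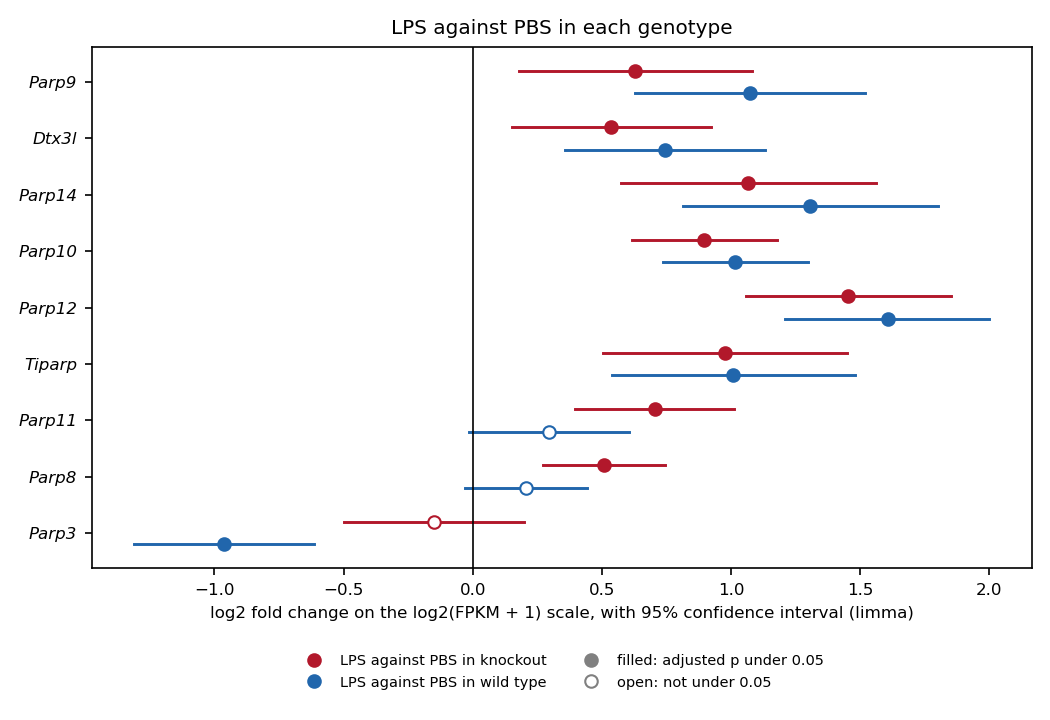
Log2 fold change of LPS against PBS on the log2(FPKM + 1) scale (horizontal axis) for the 9 genes in the knockout and in wild type, with the 95% confidence interval from limma. Filled points passed the adjusted p of 0.05; Parp12 has the largest value in both genotypes, and Parp3 alone lies clearly below 0, in wild type.

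The genes differed in the size of their response. The difference of log2 responses was computed within libraries for all 36 pairs and averaged over the genotypes. Here log2 FPKM was taken with nothing added, so the values can differ from differences between the limma fold changes. Each pair was tested by exact two-sided permutation of treatment within genotype. This comparison was chosen after the values were seen, its smallest possible p is 0.005, and p-values were adjusted over the 36 pairs, of which 20 passed. Parp12 responded more than Parp9 by 0.69, than Parp10 by 0.58, than Tiparp by 0.54, than Parp11 by 0.97, than Parp8 by 1.03 and than Dtx3l by 0.90, each with an adjusted exact p of 0.0138. Its lead over Parp14 of 0.35 did not pass (exact p = 0.06, adjusted 0.0939). Parp14 responded more than Dtx3l by 0.55 (adjusted exact p = 0.0138) and than its other chromosome neighbour Parp9 by 0.34 (adjusted exact p = 0.0212). Each of the other 8 genes differed from Parp3, with differences between 1.25 and 2.28 and adjusted exact p-values of 0.0138 or 0.0212. Tiparp and Parp10 differed by 0.04 (exact p = 0.78). With 1 library left out in turn, 15 to 21 of the pairs passed.

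LPS also changed the order of levels, which FPKM sets per length of transcript. Under PBS Parp9, Parp14, Parp12, Parp10, Dtx3l and Tiparp formed a run of neighbours whose ranges overlapped, with mean levels of 14.9 to 23.9 FPKM in knockout PBS and 15.2 to 20.5 FPKM in wild-type PBS. Under LPS Parp12 stood first, at 63.2 ± 5.98 FPKM in knockout LPS and 61.9 ± 9.14 FPKM in wild-type LPS (SD, n = 3 each), and did not overlap Parp14, the next at 48.2 ± 5.05 and 48.0 ± 3.73 FPKM in the same groups. In knockout LPS the neighbours Parp9 and Parp10, Parp10 and Tiparp, and Tiparp and Dtx3l overlapped. In wild-type LPS Parp14 overlapped Parp9, Parp10 overlapped Tiparp, and Tiparp overlapped Dtx3l. Parp11, Parp3 and Parp8 took the last 3 places in all 4 groups. Parp3 came before Parp11 in both PBS groups, with overlapping ranges in knockout PBS, and after it in both LPS groups.

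Loss of lactoferrin came with no called difference in the set. Under LPS 0 of the 9 genes passed the test between knockout and wild type, as did 0.0% of all genes in either direction. Under PBS 0 of 9 passed, while 0.0203% of all genes were called higher and 0.0915% lower in the knockout. For the difference in the LPS response, taken as knockout minus wild type, 0 of 9 passed, while 0.0406% of all genes were called higher and 0.0% lower. At an unadjusted p under 0.05 limma counted 0 of the 9 genes under LPS, 1 under PBS and 1 for the difference in response, against 744, 897 and 946 of all 9841 genes. The median log2 difference of the 9 genes was 0.01 under LPS and 0.05 under PBS, against -0.04 and -0.02 over all genes.

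The 1 gene below the unadjusted threshold was Parp3 in both. Under PBS its level averaged 3.74 ± 0.375 FPKM in the knockout and 6.10 ± 0.677 FPKM in wild type (SD, n = 3 each). The log2 difference was -0.58 with a 95% interval of -0.93 to -0.24 (limma, adjusted p = 0.303), and all 3 knockout libraries lay below all 3 wild-type libraries. For this order 7.34% of all genes had the knockout all below and 6.04% all above under PBS, and 0 other genes of the set had either. The LPS response of Parp3 differed between the genotypes by 0.81 with a 95% interval of 0.32 to 1.3 (limma, adjusted p = 0.301). These values fail the correction over all genes.

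Intervals for the other genes show what these libraries could resolve. Under LPS the 95% interval of the log2 difference between knockout and wild type was -0.27 to 0.29 for Parp10, -0.36 to 0.43 for Parp12, -0.49 to 0.50 for Parp14 and -0.69 to 0.21 for Parp9. Levels of Parp10 averaged 33.5 ± 3.94 FPKM in knockout LPS and 33.2 ± 1.24 FPKM in wild-type LPS. Levels of Parp9 averaged 36.8 ± 4.89 FPKM in knockout LPS and 43.6 ± 4.37 FPKM in wild-type LPS (SD, n = 3 each). No gene of the set had knockout and wild-type LPS libraries apart, where 5.03% of all genes had the knockout all above and 10.4% all below. Summed markers of mature neutrophils were 743 to 2720 FPKM in knockout LPS and 189 to 302 FPKM in wild-type LPS, mostly from S100a8 and S100a9. The median log2 difference of the 10 markers was 1.92, and 0 of 10 passed the test in either direction. Their part in the values of the set was not tested.

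**Figure D3:**
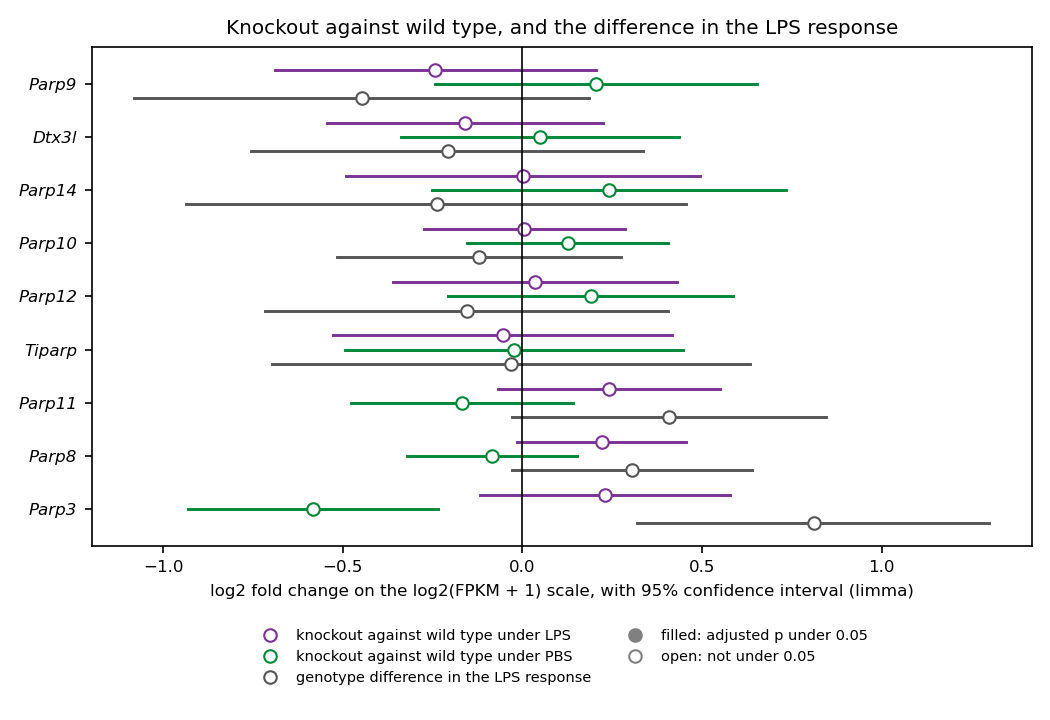
Log2 difference on the log2(FPKM + 1) scale (horizontal axis), with the 95% confidence interval from limma, of knockout against wild type under LPS and under PBS, and of the genotype difference in the LPS response, for the 9 genes. All points are open, since none passed the adjusted p of 0.05; for Parp3 the intervals under PBS and of the difference in response leave out 0.

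Some libraries were the highest or lowest of their group in many genes of the set. Knockout PBS replicate 3 was the highest of its group in 9 of 9 genes of the set and in 25 of 27 interferon-stimulated genes of a general list. Wild-type PBS replicate 3 was the lowest of its group in 6 of 9 and in 24 of the 27. Wild-type LPS replicate 2 was the lowest of its group in 6 of 9 and in 12 of the 27. In knockout LPS, replicates 1 and 3 were each the lowest in 4 of 9, and in 7 and 20 of the 27. The shares over all genes are not given here, so it is not known whether these counts are particular to the set. Without knockout PBS replicate 3 the log2 difference of knockout against wild type under PBS changed sign for Parp9, at -0.01, for Parp14, at -0.04, and for Dtx3l, at -0.19, against 0.20, 0.24 and 0.05 with all libraries.

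**Figure D4:**
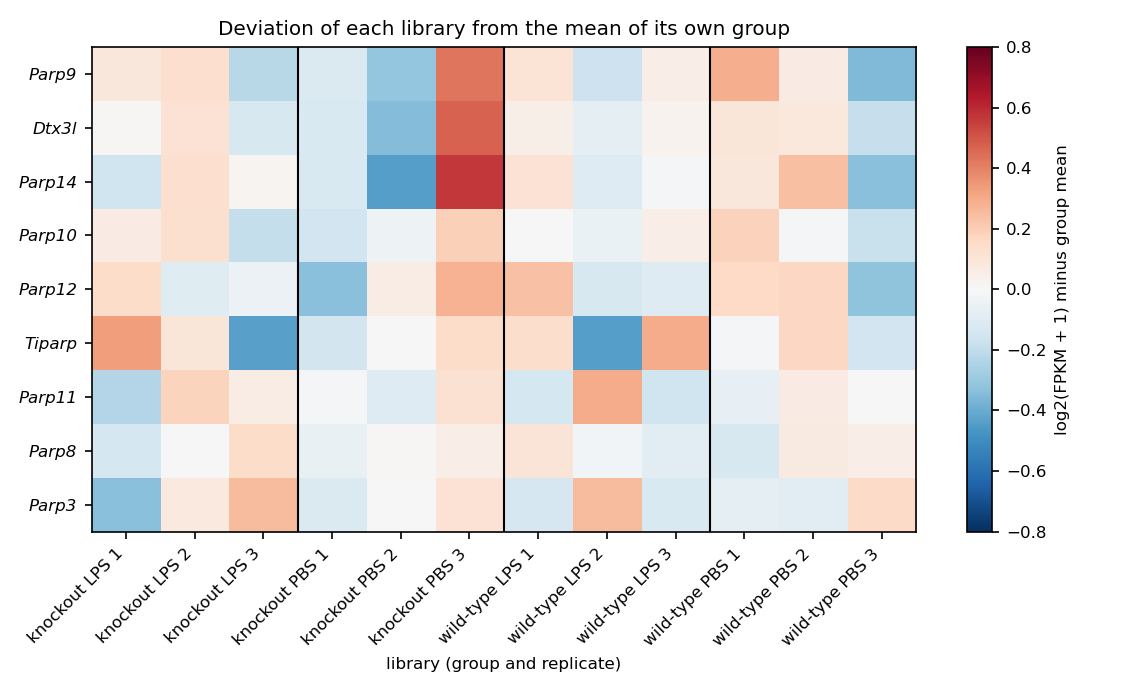
Deviation of each library (columns, by group and replicate) from the mean of its own group on the log2(FPKM + 1) scale for the 9 genes (rows). Red is above and blue below the group mean; knockout PBS replicate 3 is above its group's mean in all 9 genes, most in Parp14, Dtx3l and Parp9.

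Patterns over the 12 libraries were compared by the root mean square difference of log2 values, each gene centred on its own mean. By this measure Parp9 was closest within the set to Dtx3l, at 0.153, and Dtx3l held place 6 among 9840 genes ranked by likeness to Parp9. Parp9 held place 10 by likeness to Dtx3l. Parp8 and Parp11 were also each other's nearest in the set, at 0.161. Parp11 held place 75 by likeness to Parp8, and Parp8 place 23 by likeness to Parp11. The nearest in the set to Tiparp was Parp10, at 0.199 and place 4. The most like genes of all were Trafd1, Helz2 and Dhx33 for Parp9, Trim21, Fam208b and Bclaf1 for Dtx3l, Slfn8, Xaf1 and Stat2 for Parp14, Ogfr, Nmi and Lgals9 for Parp10, and Pnp, Herc6 and Oas1a for Parp12. For Parp10 and Ogfr the difference was 0.0697, while the median over all genes was 0.596. Tiparp was most like Pnp2, Ogfr and Stk39. Parp11 was most like E2f6, Bbs12 and Smg8, and Parp8 most like Gopc, Adck4 and Smg8.

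Parp3 had no close match in the set. Its nearest was Parp8 at 0.51, place 5979 of 9840. Dusp7, a MAP kinase phosphatase gene that lies 94.6 kilobases from Parp3 on chromosome 9, was the most like of all genes at 0.137, followed by Nat6 at 0.156 and Cpox at 0.158, with a median of 0.452 over all genes. Dusp7 had 11.0, 11.4 and 12.3 FPKM in knockout LPS and 14.6, 13.9 and 14.6 FPKM in knockout PBS. In wild-type LPS it had 10.4, 11.7 and 9.49 FPKM, against 18.3, 18.2 and 24.4 FPKM in wild-type PBS. As with Parp3, the wild-type PBS libraries were the highest of all.

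Genes around the set in the same biochemistry were counted by list. For these and the later lists, 19.9% of all genes tested rose and 33.3% fell with LPS in the knockout. In wild type 24.8% rose and 37.4% fell. The median log2 fold changes over all genes were -0.13 in the knockout and -0.11 in wild type. Whether a list differed from these shares was not tested. Of 7 tested other PARP genes 0 rose and 2 fell in the knockout, and 1 rose and 3 fell in wild type, with median log2 fold changes of -0.19 and -0.29. Parp4, the PARP of vault particles, fell by 0.86 ± 0.0884 in the knockout (log2 fold change -0.86, limma, adjusted p = 2.1e-05) and by 0.88 ± 0.0884 in wild type (-0.88, adjusted p = 1.33e-05). The tankyrase gene Tnks2 fell by 0.42 and 0.36 in knockout and wild type (log2 fold changes -0.42 and -0.36, limma, adjusted p = 0.0011 and 0.00243). Zc3hav1, which encodes the antiviral zinc-finger protein related to Parp12, rose in wild type by 0.33 ± 0.127 (limma, adjusted p = 0.0408) and had 0.15 ± 0.127 in the knockout (adjusted p = 0.325).

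Of 11 tested genes listed as readers and erasers of ADP-ribose 3 rose and 2 fell in the knockout, with a median of 0.03. In wild type 5 rose and 3 fell, with a median of 0.16. The list also held Pcna, which is neither a reader nor an eraser, so these counts include it. Nudt5, an ADP-sugar hydrolase, rose by 0.70 in the knockout and 0.82 in wild type (limma, adjusted p = 0.00105 and 0.000272), and Pcna, the replication clamp, by 0.84 and 0.98 (adjusted p = 0.00165 and 0.000422). Nudt16, a hydrolase that can shorten ADP-ribose marks, fell by 1.03 in the knockout and 0.36 in wild type (log2 fold changes -1.03 and -0.36, limma, adjusted p = 0.000152 and 0.0465). Among the 4 other Deltex genes 2 rose in the knockout and 1 in wild type, with 0 that fell and medians of 0.47 and 0.18. Dtx2 rose by 0.95 in the knockout and 1.11 in wild type (limma, adjusted p = 0.0017 and 0.000439). Dtx4, known from cell lines for the turnover of the kinase TBK1, rose by 1.06 in the knockout (limma, adjusted p = 0.000124) and had 0.29 in wild type (adjusted p = 0.0943), and the difference between the genotypes, 0.77, did not pass (adjusted p = 0.275).

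NAD is the substrate of all transferases, and of 16 tested genes of its supply and use 5 rose and 7 fell in the knockout, and 4 rose and 7 fell in wild type, with medians of -0.11 and -0.19. Nampt, the rate-limiting enzyme of NAD salvage, had 130, 154 and 134 FPKM in knockout LPS and 35.3, 36.3 and 47.8 FPKM in knockout PBS. It had 159, 154 and 171 FPKM in wild-type LPS and 49.6, 66.1 and 29.2 FPKM in wild-type PBS. The groups were far apart, and Nampt rose by 1.79 ± 0.236 in both genotypes (limma, adjusted p = 0.000108 in the knockout and 7.28e-05 in wild type). Ido1, the first enzyme of the path from tryptophan to NAD, rose by 1.20 in the knockout and 1.43 in wild type (limma, adjusted p = 0.000166 and 3.54e-05). Its mean was 1.74 FPKM in knockout LPS and 0.163 FPKM in knockout PBS. In wild-type LPS it was 2.22 FPKM, against 0.193 FPKM in wild-type PBS. At such levels the added 1 FPKM understates the fold change. Nt5e, the surface nucleotidase that makes adenosine, fell by 1.94 in the knockout and 2.41 in wild type (log2 fold changes -1.94 and -2.41, limma, adjusted p = 0.00111 and 0.000186).

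Interferon-stimulated genes outside the set had larger median changes than the set. All 27 on the list were tested, and 22 rose and 0 fell in the knockout, and 23 rose and 0 fell in wild type, with medians of 1.48 and 1.68. Cxcl10, a chemokine that draws T cells, rose by 4.72 ± 0.446 in the knockout and 5.07 ± 0.446 in wild type (limma, adjusted p = 1.23e-05 and 6.04e-06). The interferon-inducible GTPase genes Iigp1 and Gbp5 rose by 3.86 and 2.63 in the knockout and by 3.72 and 2.75 in wild type (limma, adjusted p between 5.08e-05 and 0.000109). Parp12, with 1.45 in the knockout and 1.61 in wild type, lay just below the medians of that list, and the other 8 genes of the set lay further below them. Among 16 tested genes of interferon signalling 8 rose and 2 fell in the knockout, and 7 rose and 4 fell in wild type, with medians of 0.33 and 0.35. Ifnb1, which encodes interferon beta, was on this list but under the filter, with at most 0.0648 FPKM in the 12 libraries. Socs1, a feedback inhibitor of JAK kinases, rose by 2.60 in the knockout and 1.90 in wild type (limma, adjusted p = 1.23e-05 and 6.44e-05). Ifng, which encodes interferon gamma, rose by 2.23 and 2.54 (limma, adjusted p = 0.000335 and 9.63e-05), and Usp18, which trims ISG15 from proteins and dampens the type I receptor, by 2.04 and 2.40 (limma, adjusted p = 0.000166 and 3.78e-05). Fold changes of Ifng are understated by the added 1 FPKM, since its mean was 0.359 FPKM in knockout PBS and 0.873 FPKM in wild-type PBS.

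Of 9 genes of the AHR pathway 4 were tested, Tiparp among them. In the knockout 2 rose and 0 fell, and in wild type 2 rose and 1 fell, with medians of 0.42 and 0.47. Apart from Tiparp, Hif1a, whose protein shares its partner Arnt with AHR, rose by 1.17 in the knockout and 1.08 in wild type (limma, adjusted p = 0.00181 and 0.00218). Ahr itself fell by 1.13 in wild type (log2 fold change -1.13, adjusted p = 0.00303) and had -0.50 in the knockout (adjusted p = 0.129). Ahrr, Cyp1a1, Cyp1a2, Cyp1b1 and Nqo1 were below the filter and not tested. Mean Cyp1b1 was 0.927 FPKM in knockout LPS and 0.0602 FPKM in knockout PBS. In wild type it was 1.33 FPKM with LPS and 0.0536 FPKM with PBS. Mean Nqo1 was lower with LPS, at 0.224 against 0.578 FPKM in the knockout and 0.121 against 1.14 FPKM in wild type. Mean Ahrr was also lower with LPS in both genotypes. Cyp1a1 and Cyp1a2 had at most 0.0152 FPKM. Of 7 tested genes that lie next to the set on its chromosomes 3 rose and 2 fell in the knockout, and 4 rose and 2 fell in wild type, with medians of 0.31 and 0.49. Besides Rrp9, Plec and Grina, which neighbour Parp10, fell by 1.90 and 0.57 in the knockout and by 2.04 and 1.56 in wild type (log2 fold changes -1.90, -0.57, -2.04 and -1.56, limma, adjusted p between 2.8e-05 and 0.026). None of the genes on these lists passed the test between the genotypes under LPS or PBS, or for the difference in the LPS response.

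**Figure D5:**
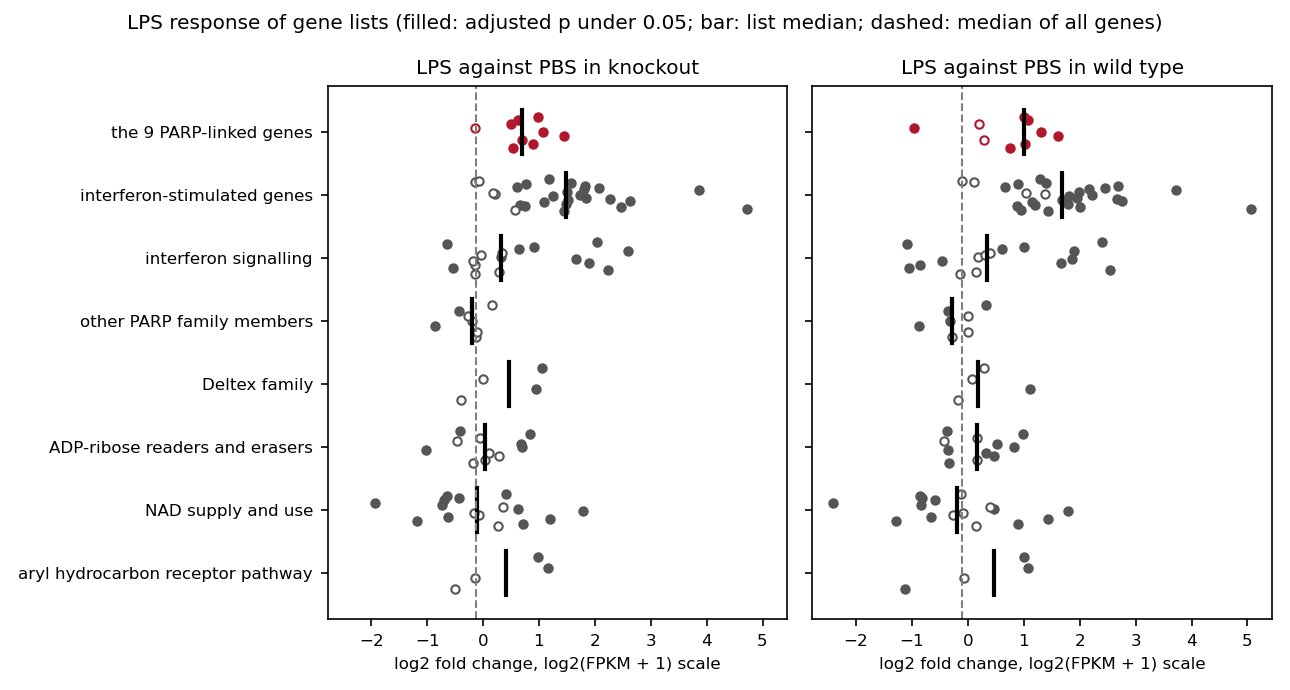
Log2 fold change of LPS against PBS on the log2(FPKM + 1) scale (horizontal axis) in the knockout (left) and in wild type (right) for the 9 genes and 7 gene lists (rows). Points are genes, filled where the adjusted p was under 0.05, bars are list medians and the dashed line is the median of all genes; the 9 genes have medians of 0.70 and 1.01, between those of interferon signalling and of interferon-stimulated genes.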

How the data were processed

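Total RNA of peritoneal lavage cells was sequenced in 12 libraries, grouped by genotype and treatment as the labels give them. The authors deposited 1 value per gene and library, whose unit is not stated; the deposited values were taken as FPKM, since they are not whole and Cufflinks is named beside TopHat, HTSeq, DESeq and GRCm38 in the submitters' processing notes, with no roles or versions. Gene models, filters and strandedness were not given in the sources used here. Of 21878 rows 27 had symbols turned into dates and were left out. Mx genes, mitochondrially encoded transcripts, Xist and receptor constant regions are not reported here.

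From these values log2(FPKM + 1) was tested with limma 3.58.1 (trend, robust) in R 4.3.3, with 1 mean per group and 8 residual degrees of freedom, over the 9841 genes whose mean reached 1 FPKM. Differences between genes in their LPS response used exact permutation tests on log2 FPKM with nothing added. Tests were two-sided at a Benjamini-Hochberg adjusted p of 0.05 within a contrast. The procedure was tested on simulated data. Alternatives were other pseudocounts, filters, scalings and fits, a replicate block and leaving out libraries. The 9 genes and the gene lists (PARP and Deltex families, readers and erasers of ADP-ribose, NAD supply, interferon signalling and targets, AHR pathway, chromosome neighbours) were chosen with earlier results of these data known. All 9 genes are named, with the 3 called genes of each list that changed most, the 3 genes most like each of the 9, and Ltf. Positions are from the annotation of GRCm38.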

Additional observations from a re-analysis of the deposited data

How the results depend on the processing

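The 15 calls of the 9 genes in the LPS contrasts kept their direction in all 327 alternative values, and 12 of these lost the call, all for Parp9 or Dtx3l in the knockout. The largest move was 1.48 times. A minimum of 5 FPKM removed Parp3, Parp8 and Parp11 from the test, so their calls were not checked at that filter.

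Scaling moved the median log2 fold change of all genes to 0.04 (median of ratios) or -0.01 (upper quartile), against -0.13, in the knockout, and to 0.05 or 0.01, against -0.11, in wild type, and it moved the calls in the knockout to 2933 higher and 2401 lower, or 2623 and 2617, against 1958 and 3277, and in wild type to 3328 and 2857, or 3130 and 3043, against 2443 and 3680. No called gene of the pathway lists changed direction. With median-of-ratios scaling Parp3 changed sign in the knockout at 0.00149 with LPS, and Tiparp under PBS between genotypes at 0.00976, or 0.0056 with upper-quartile scaling. Without the 3 libraries rich in haemoglobin RNA, a setting chosen after seeing the data, the signs turned for Parp3 with LPS in the knockout (0.0174), Parp10 (-0.0524) and Parp12 (-0.105) between genotypes under LPS, and Tiparp (0.0597) under PBS; none of these was called.

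Counts of all genes called between genotypes were small and unsteady, and the cause was not tested. Under LPS the count of 0 became 2 with no filter and 3 with only the groups compared. Under PBS the 11 became 4 with a minimum of 5 FPKM, 7 with median-of-ratios scaling, 0 with only the groups compared and 1 without the haemoglobin-rich libraries. For the difference in response the 4 became 2 with a pseudocount of 0.5, 1 with no filter or a minimum of 5 FPKM, 7 with median-of-ratios scaling, 8 with upper-quartile scaling, 7 without trend and robust shrinkage and 0 without the haemoglobin-rich libraries.

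With 1 library left out in turn, the counts were 0 to 29 under LPS, 0 to 30 under PBS and 0 to 48 for the difference, with 4332 to 5688 for LPS in the knockout and 5359 to 6166 in wild type. Values that changed sign ranged from -0.383 to 0.0264 for Dtx3l, -0.323 to 0.00622 for Parp12, -0.459 to 0.0435 for Parp14 and -0.252 to 0.184 for Tiparp in the difference. They ranged from -0.0587 to 0.102 for Parp10, -0.0392 to 0.152 for Parp12, -0.0659 to 0.0827 for Parp14 and -0.275 to 0.161 for Tiparp under LPS. They ranged from -0.186 to 0.224 for Dtx3l, -0.0408 to 0.462 for Parp14, -0.00808 to 0.36 for Parp9 and -0.0999 to 0.0597 for Tiparp under PBS, and from -0.279 to 0.0174 for Parp3 with LPS in the knockout.

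Libraries with the same replicate number did not deviate together, with correlations between -0.159 and 0.19 for LPS and PBS of a genotype, so the numbers were not taken as pairs. With a replicate block the genes called under PBS between genotypes numbered 3, and 7 of the 9 genes were called with LPS in the knockout (Dtx3l, adjusted p = 0.0519 by limma) and 7 in wild type.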
